A study of Homo sapiens with 6 samples.

Results

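Wnt pathway components and β-catenin target genes were compared between DLD-1Δα-Cat and DLD-1α-Cat, 2 subclones of the human colorectal adenocarcinoma cell line DLD-1. The set was chosen by gene symbol and holds 35 genes, of which 32 had a probe set with that symbol alone, among 19775 genes measured. Each gene was read from 1 probe set, that with the highest mean over the 6 arrays. By their textbook role 18 of the 32 were counted as components of the pathway and 14 as targets. PORCN, TCF7 and TDGF1, 1 component and 2 targets, had no probe set with their symbol alone in the annotation used and are not analysed here.

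The samples were 3 of DLD-1Δα-Cat and 3 of DLD-1α-Cat, each hybridised to 1 Affymetrix array. All 6 had spent 96 h without treatment in a three-dimensional gel of type I collagen at 1 mg/ml. The labels give neither the meaning of Δα-Cat nor the way the subclones were obtained, and α-catenin status cannot be told apart from any other difference between the subclones. Whether the 3 arrays of a subclone stand for separate cultures is not given, so the p-values cover the spread between these arrays, which may be technical. Values are log2 intensities after RMA, a step that evens out overall brightness between arrays. A difference is the DLD-1Δα-Cat mean minus the DLD-1α-Cat mean, tested with limma and adjusted by Benjamini-Hochberg over all genes. A gene was called at an adjusted p under 0.05.

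In canonical Wnt signalling a secreted Wnt protein binds a Frizzled receptor and stalls the destruction complex of Axin, APC, GSK3β and casein kinase 1α, which otherwise marks β-catenin for breakdown. β-catenin then enters the nucleus, joins TCF/LEF proteins on DNA and turns on target genes, several of which feed back to inhibit the pathway. The same protein binds E-cadherin and α-catenin at adherens junctions. In the intestine the pathway maintains the stem cells of the crypt, and DLD-1 is known to carry truncated APC, so that β-catenin is stable there without a Wnt ligand.

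CTNNA1, which encodes αE-catenin, was checked first. It stood at 11.38, 11.30 and 11.01 on the DLD-1Δα-Cat arrays, against 12.73, 12.74 and 12.79 on the DLD-1α-Cat arrays, a difference of -1.52 (SE 0.119, limma adjusted p = 0.000838). CTNNB1, the gene of β-catenin itself, stood at 13.39, 13.33 and 13.36 on the DLD-1Δα-Cat arrays and at 13.48, 13.46 and 13.35 on the DLD-1α-Cat arrays. Its groups overlapped, and the 95% interval of its difference ran from -0.28 to 0.14. A dimmer probe set of CTNNB1, at a mean of 7.90, differed by -0.35 (95% interval -0.64 to -0.066) without overlap. It did not pass in the fit of every probe set (limma adjusted p = 0.192). The dimmest probe set differed by 0.024. In bulk RNA such as this, fewer cells that express a gene and less RNA per cell cannot be told apart. The array does not measure β-catenin protein or where in the cell it lies. The 12 markers of colon epithelium averaged between 10.25 and 10.61 per array on the DLD-1Δα-Cat arrays and between 10.23 and 10.43 on the DLD-1α-Cat arrays. Of these CLDN3, a tight junction claudin, was called lower (-0.46, limma adjusted p = 0.0328), and CEACAM5, an adhesion glycoprotein, differed by 1.46 without a call (limma adjusted p = 0.145). The averages of 10 fibroblast markers lay between 4.44 and 4.78 on all 6 arrays. The 7 endothelial markers, at 5.36 to 5.46 on the DLD-1Δα-Cat arrays and 5.50 to 5.59 on the DLD-1α-Cat arrays, and the 5 leukocyte markers, at 4.34 to 4.45 on the DLD-1Δα-Cat arrays and 4.60 to 4.82 on the DLD-1α-Cat arrays, averaged lower on every DLD-1Δα-Cat array than on any DLD-1α-Cat array. Of these 22 markers of other cell types 0 passed, where 5.52% of all genes were called. At an unadjusted p under 0.05 there were 6, against 20.8% of all genes. By list these were 20% of the fibroblast, 28.6% of the endothelial and 40% of the leukocyte markers. Groups without overlap were seen in 20%, 28.6% and 60% of these lists, against 27.2% of all genes. The part of these markers in the results was not tested.

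Most of the pathway differed little between the subclones. Of the 32 measured members 1 rose in DLD-1Δα-Cat, the Frizzled receptor gene FZD7, and 0 fell. That is 3.12% of the members, where 5.52% of all genes were called (3.84% higher and 1.67% lower). At an unadjusted p under 0.05 there were 5 members higher and 1 lower, 18.8% of them, against 20.8% of all genes (11.8% higher and 8.98% lower). Groups without overlap were seen in 8 members, 6 higher and 2 lower, or 25%, against 27.2% of all genes (14.1% higher and 13.1% lower). The median absolute difference was 0.18 over the members and 0.17 over all genes. These shares lie near or below those of all genes, so the count of calls does not set the members apart. Fits with other settings called between 0 and 3 members higher and between 0 and 2 lower. The share of all genes called in those fits was 5.94% with quantile normalization, 5.45% after centring, 11.1% without dim genes, 5.84% with the mean of probe sets, 4.2% when every probe set was tested, 8.67% with trended and robust variances, 0.582% without moderation, 8.2% with array weights and 0.425% with a β-actin ratio of RNA quality as a covariate. It was 3.32%, 2.24% and 2.49% without replicate 1, 2 or 3 of DLD-1Δα-Cat and 4.1%, 6.08% and 2.29% without replicate 1, 2 or 3 of DLD-1α-Cat. With the replicate number as a block 3 members were higher, FZD7, FZD3 and TCF7L1, and 0 lower, against 7.39% of all genes called in that fit.

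**Figure D1:**
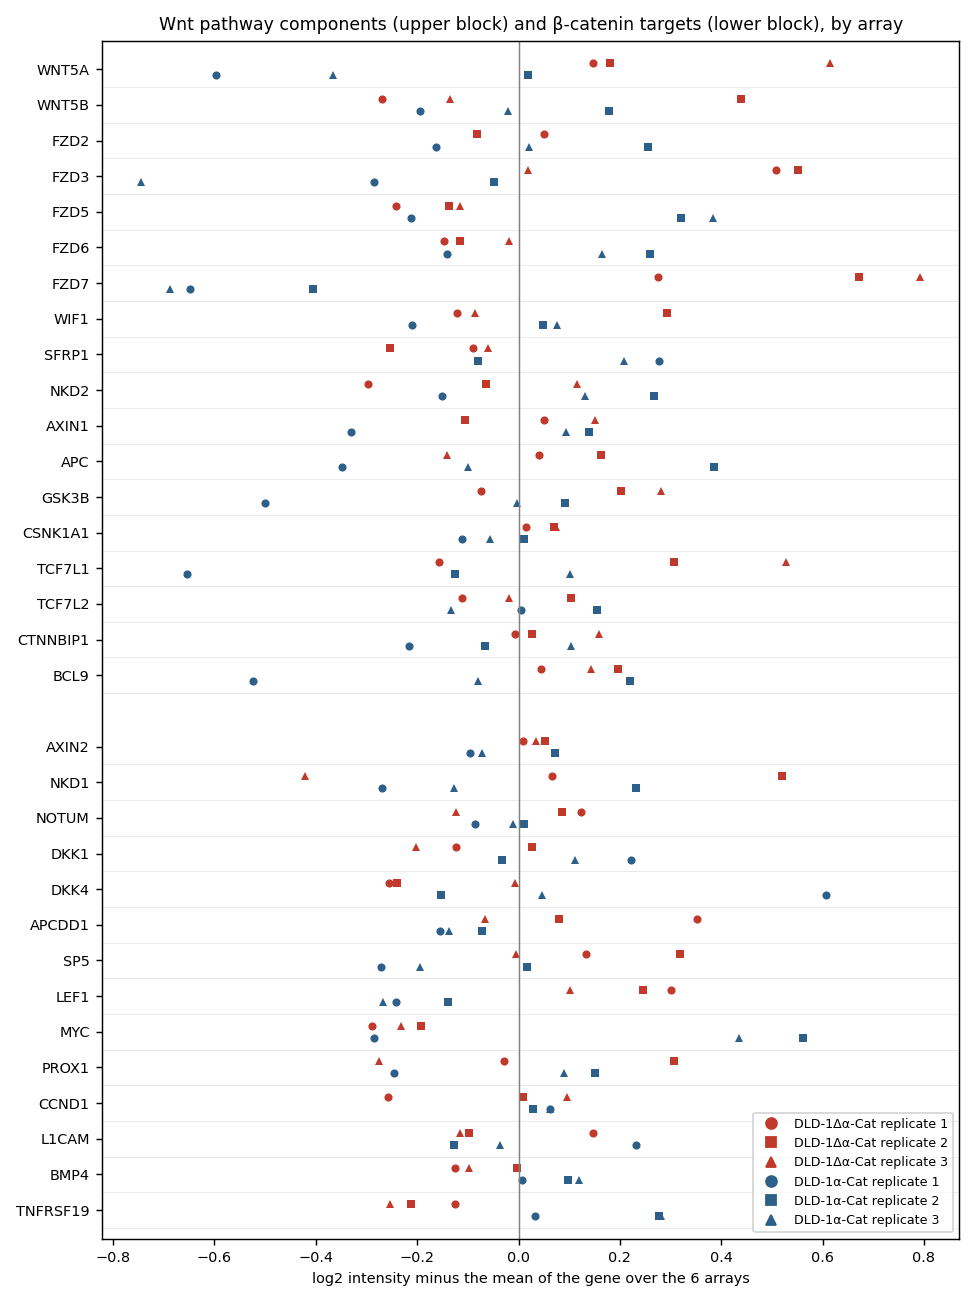
Log2 intensity of each measured member on each array, minus the gene's mean over the 6 arrays, with components in the upper and targets in the lower block. For FZD7 the 3 DLD-1Δα-Cat arrays lie right of the 3 DLD-1α-Cat arrays with a wide gap, while most other genes have groups that overlap or lie close together.

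Components and targets had medians near 0. The 18 components had a median difference of 0.060, with values from -0.33 to 1.16, and 12 lay above 0. The 14 targets had a median of -0.020, with values from -0.47 to 0.43, and 7 lay above 0. The median over all genes was -0.030, and 44.7% of them lay above 0. Centring each array on its median lowered the median of all genes to -0.17, the components' to -0.079 and the targets' to -0.16. Centring takes the same amount from every gene, so the change of sign of the components' median says nothing particular to them. The components had 1 call, or 5.56%, and the targets 0, against 5.52% of all genes. No test of the difference between these lists was made.

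The intervals show what size of change the arrays leave possible. For 28 of the 32 members the 95% interval of the difference lay wholly within 2-fold in either direction, 87.5% against 91.2% of all genes. All 14 targets were among them. The 4 members whose interval reached 2-fold were FZD7, FZD3, WNT5A and TCF7L1, all components, and all 4 reached it on the upper side.

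**Figure D2:**
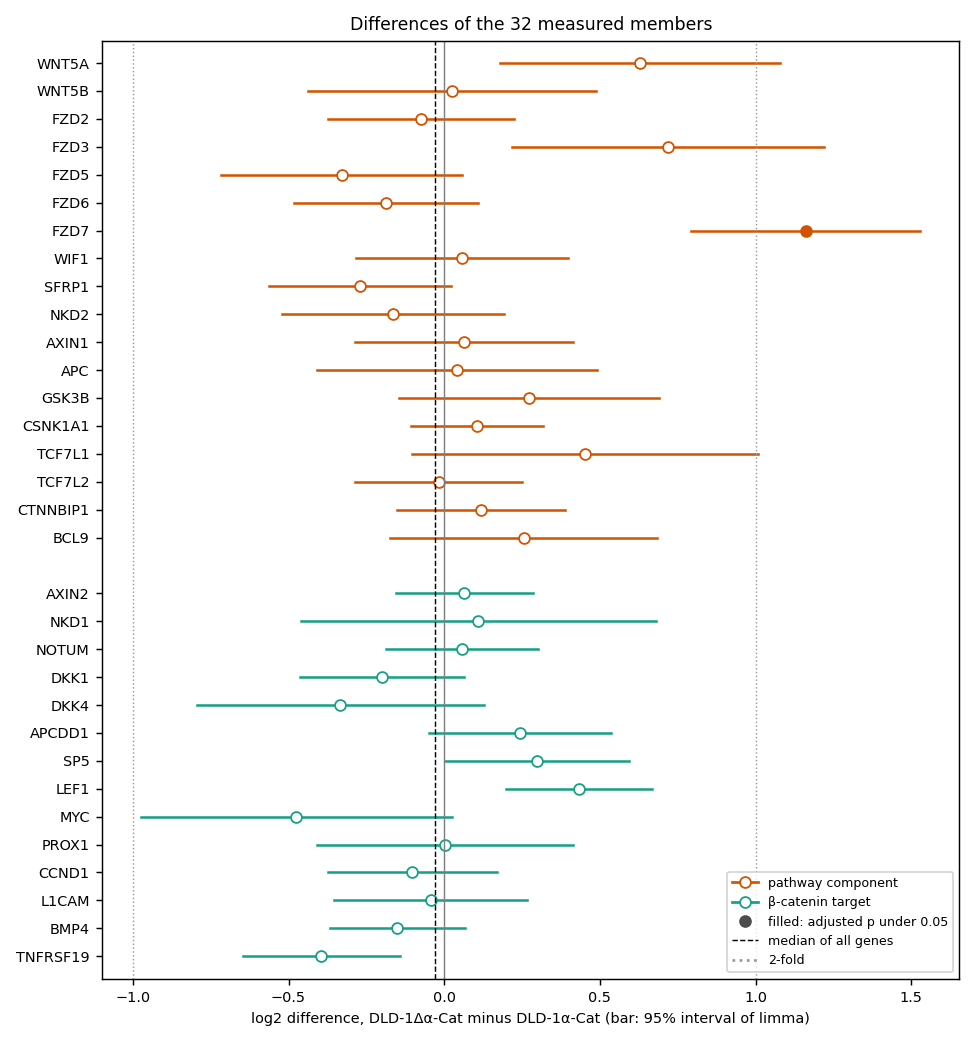
Log2 difference of each measured member, DLD-1Δα-Cat minus DLD-1α-Cat, with its 95% interval; filled points have an adjusted p under 0.05, the dashed line is the median of all genes and dotted lines mark 2-fold. FZD7 is the filled point at 1.16, and all 14 target intervals lie between the dotted lines.

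Wnt ligands are the start of the pathway. WNT5A, a ligand best known for β-catenin-independent signalling, stood at 8.65, 8.68 and 9.12 on the DLD-1Δα-Cat arrays, against 7.90, 8.52 and 8.14 on the DLD-1α-Cat arrays. The groups did not overlap, with replicate 2 of DLD-1α-Cat close to the lowest DLD-1Δα-Cat array. The difference of 0.63 (SE 0.192) did not pass (limma adjusted p = 0.116). The second probe set of WNT5A, dimmer at a mean of 6.44, stood at 7.24, 6.89 and 7.05 on the DLD-1Δα-Cat arrays and at 5.32, 6.35 and 5.82 on the DLD-1α-Cat arrays. It differed by 1.23 and passed in the fit of every probe set (limma adjusted p = 0.0412), where 3.38% of all probe sets with 1 symbol were called (2.23% higher). The mean of both probe sets differed by 0.93 (limma adjusted p = 0.0312). The direction of WNT5A was thus the same on both probe sets and the call depended on which was read. Its close relative WNT5B lay between 6.82 and 7.52 on the DLD-1Δα-Cat arrays and between 6.89 and 7.26 on the DLD-1α-Cat arrays, with a difference of 0.024 (95% interval -0.44 to 0.49).

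Of the 5 Frizzled receptor genes 1 rose and 0 fell, or 20%, against 5.52% of all genes. That share rests on 1 gene and says nothing of the receptors as a group. FZD7, a receptor linked to stem cell maintenance in the intestine, stood at 11.36, 11.76 and 11.88 on the DLD-1Δα-Cat arrays, against 10.44, 10.68 and 10.40 on the DLD-1α-Cat arrays. Every DLD-1Δα-Cat array was above every DLD-1α-Cat array, by at least 0.68. The means were 11.67 ± 0.270 on the DLD-1Δα-Cat arrays and 10.51 ± 0.153 on the DLD-1α-Cat arrays (SD, n = 3 each), a difference of 1.16 (SE 0.157, limma adjusted p = 0.00800) or 2.24-fold. Its second probe set gave 10.09, 10.19 and 10.39 on the DLD-1Δα-Cat arrays and 8.70, 9.23 and 9.17 on the DLD-1α-Cat arrays. That is a difference of 1.19 (limma adjusted p = 0.0117 over every probe set), so both probe sets of FZD7 passed with nearly the same size. FZD7 was called in all 6 fits that left out an array, at 1.06 to 1.31, and at 1.02 after centring. Without moderation of the variances its adjusted p was 0.101. The spread of β-actin signal along its transcript, a measure of RNA quality, was higher in the same group. The 3' control probe set of β-actin exceeded the 5' one by 5.20 ± 0.159 on the DLD-1Δα-Cat arrays and 4.69 ± 0.291 on the DLD-1α-Cat arrays (SD, n = 3 each). With this β-actin ratio as a covariate, chosen after seeing the data, FZD7 differed by 1.01 (SE 0.275, limma adjusted p = 0.319). That fit called 0.425% of all genes. The lowest ratio on a DLD-1Δα-Cat array was 5.07 and the highest on a DLD-1α-Cat array 4.89. The ratio thus separates the groups, and its part cannot be told apart from that of the subclone.

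FZD3, a receptor known for planar cell polarity and axon guidance, stood at 8.55, 8.59 and 8.06 on the DLD-1Δα-Cat arrays, against 7.75, 7.99 and 7.29 on the DLD-1α-Cat arrays. The groups did not overlap, but replicate 3 of DLD-1Δα-Cat exceeded replicate 2 of DLD-1α-Cat by 0.067. The difference of 0.72 (SE 0.214) had a limma adjusted p of 0.107, and 0.0195 with the block. With the β-actin ratio as a covariate it was 0.080 (limma adjusted p = 0.951). Within pairs of arrays with the same number it was higher by 0.79, 0.60 and 0.76. All 4 probe sets of FZD3 lay above 0, from 0.20 to 0.85, and 0 of them passed in the unblocked fit of every probe set. The remaining receptors lay below 0 without a call: FZD5, a receptor of Paneth cell maturation in the mouse, at -0.33 (95% interval -0.72 to 0.058), FZD6 at -0.19 (-0.48 to 0.11) and FZD2 at -0.076 (-0.37 to 0.22). Replicate 1 of DLD-1α-Cat, at 8.17, was the array of its group nearest to DLD-1Δα-Cat for FZD5. Without that array FZD5 differed by -0.52 (limma adjusted p = 0.0441).

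**Figure D3:**
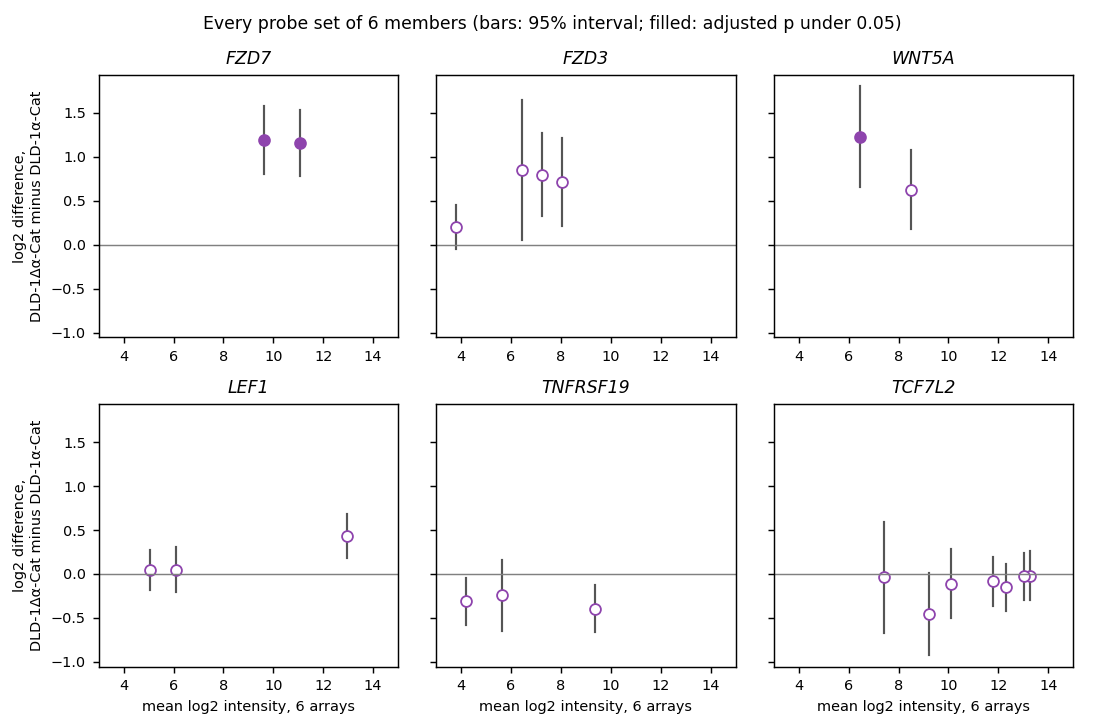
Log2 difference with its 95% interval of every probe set of 6 members, against the probe set's mean log2 intensity over the 6 arrays; filled points have an adjusted p under 0.05 in the fit of every probe set. Both FZD7 probe sets lie near 1.2, the dimmer WNT5A probe set lies above the brighter one, and all 7 TCF7L2 probe sets lie below 0.

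Secreted antagonists and an intracellular inhibitor gave 0 calls. WIF1, which binds Wnt proteins outside the cell, lay between 4.06 and 4.47 on the DLD-1Δα-Cat arrays and between 3.97 and 4.25 on the DLD-1α-Cat arrays. Its mean was among the lowest 25% of probe set means. SFRP1, a Frizzled-related decoy, differed by -0.27 (95% interval -0.56 to 0.023). NKD2, a Dishevelled-binding inhibitor, differed by -0.16 (95% interval -0.52 to 0.19). On the probe sets read here the groups of all 3 genes overlapped. Of the 4 probe sets of SFRP1 3 lay below 0 and 1 above. A dimmer one, at a mean of 4.02, differed by -0.31 (95% interval -0.57 to -0.038) without overlap. It did not pass in the fit of every probe set (limma adjusted p = 0.223).

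The destruction complex genes gave 0 calls. AXIN1, the scaffold, differed by 0.064, APC by 0.041, GSK3B by 0.27 and CSNK1A1, the kinase that primes β-catenin, by 0.11, and 0 of these 4 passed (limma adjusted p from 0.421 to 0.921). APC stood at 9.31, 9.44 and 9.13 on the DLD-1Δα-Cat arrays, against 8.93, 9.66 and 9.17 on the DLD-1α-Cat arrays, so that the widest spread lay withon the DLD-1α-Cat arrays. CSNK1A1 was the one member of the complex whose arrays did not overlap, at 14.10, 14.16 and 14.16 on the DLD-1Δα-Cat arrays and 13.97, 14.09 and 14.03 on the DLD-1α-Cat arrays. Of its 13 probe sets 11 lay above 0, with a range of -0.065 to 0.45. After centring, AXIN1, APC and CSNK1A1 turned to -0.075, -0.098 and -0.034, and GSK3B kept its sign at 0.13. GSK3B differed by 0.092 without replicate 1 of DLD-1α-Cat and by 0.039 as the mean of its probe sets.

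Replicate 1 of DLD-1α-Cat was the lowest of the 6 arrays for all 4 destruction complex genes. It was the lowest for 13 of the 32 members, or 40.6%, against 22.6% of all genes, and for 10 of the 18 components. The median of all genes on this array was 7.64, against 7.80 to 7.91 on the other 5. Limma's array weights gave it the lowest weight, 0.431. The median SD within a subclone over the members was 0.136 for DLD-1Δα-Cat and 0.188 for DLD-1α-Cat, and over all genes it was 0.124 for DLD-1Δα-Cat and 0.172 for DLD-1α-Cat.

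Nuclear partners of β-catenin came next. TCF7L2 (TCF4), the main TCF of intestinal epithelium, stood at 13.17, 13.39 and 13.27 on the DLD-1Δα-Cat arrays and at 13.29, 13.44 and 13.15 on the DLD-1α-Cat arrays. The groups overlapped fully, with a difference of -0.018 (95% interval -0.29 to 0.25). All 7 of its probe sets lay below 0, from -0.45 to -0.018, and 0 passed. TCF7L1 (TCF3), mostly a repressor, stood at 6.12, 6.59 and 6.81 on the DLD-1Δα-Cat arrays and at 5.63, 6.16 and 6.38 on the DLD-1α-Cat arrays. The groups overlapped, yet each DLD-1Δα-Cat array was above the DLD-1α-Cat array of the same number, and the difference of 0.45 passed with the block (limma adjusted p = 0.0414) and not without it (0.329). It was 0.24 without replicate 1 of DLD-1α-Cat, 0.30 without replicate 3 of DLD-1Δα-Cat and 0.81 with the β-actin ratio as a covariate, with 0 calls in these fits. CTNNBIP1 (ICAT), which keeps β-catenin from TCF proteins, differed by 0.12 (95% interval -0.15 to 0.39). BCL9, a β-catenin coactivator, differed by 0.25 (95% interval -0.17 to 0.68), and its lowest value, 6.58, was on replicate 1 of DLD-1α-Cat. Without that array BCL9 differed by 0.057.

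Among the targets, the feedback genes are the usual readout of pathway activity. AXIN2, a second Axin that β-catenin induces, stood at 13.63, 13.67 and 13.65 on the DLD-1Δα-Cat arrays, against 13.52, 13.69 and 13.54 on the DLD-1α-Cat arrays. The 6 values spanned 0.17, and the difference of 0.064 had a 95% interval from -0.16 to 0.28. Of the 4 probe sets of AXIN2 2 lay above 0 and 2 below, and 0 passed. The dimmest, at a mean of 5.75, differed by -0.20 (95% interval -0.45 to 0.053) without overlap (limma adjusted p = 0.391 over every probe set). NKD1, a Dishevelled inhibitor, differed by 0.11 (95% interval -0.46 to 0.68) with a wide spread between replicates. NOTUM, a secreted enzyme that inactivates Wnt proteins, differed by 0.056 (95% interval -0.19 to 0.30). APCDD1, a membrane inhibitor of Wnt, stood at 9.00, 8.72 and 8.58 on the DLD-1Δα-Cat arrays and at 8.49, 8.57 and 8.51 on the DLD-1α-Cat arrays. Its groups were apart by 0.0072 and its difference of 0.24 did not pass (limma adjusted p = 0.320). The second probe set of APCDD1, dimmer at a mean of 5.47, differed by -0.069 (95% interval -0.37 to 0.23).

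The Dickkopf genes encode secreted inhibitors of the LRP5 and LRP6 coreceptors. DKK1 stood at 2.92, 3.07 and 2.84 on the DLD-1Δα-Cat arrays, against 3.26, 3.01 and 3.15 on the DLD-1α-Cat arrays, near the bottom of the scale on every array. DKK4 stood at 5.05, 5.06 and 5.30 on the DLD-1Δα-Cat arrays and at 5.91, 5.15 and 5.35 on the DLD-1α-Cat arrays. The high value of replicate 1 of DLD-1α-Cat made most of the DKK4 difference of -0.33, which was -0.11 without that array. Neither gene passed (limma adjusted p = 0.356 and 0.377).

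Transcription factors among the targets gave the closest call. LEF1, the TCF/LEF factor that β-catenin induces in colon cancer, stood at 13.24, 13.19 and 13.04 on the DLD-1Δα-Cat arrays, against 12.70, 12.80 and 12.67 on the DLD-1α-Cat arrays. The groups did not overlap, and the lowest DLD-1Δα-Cat array was 0.24 above the highest DLD-1α-Cat array. The difference of 0.43 (SE 0.0999) missed the threshold (limma adjusted p = 0.0531). It passed in 4 of 16 other fits, with quantile normalization, without dim genes, with array weights and with trended, robust variances (adjusted p from 0.00431 to 0.0462). LEF1 passed in 0 of the 6 fits without 1 array (adjusted p from 0.0622 to 0.190). The difference was 0.29 after centring (limma adjusted p = 0.192) and 0.33 with the β-actin ratio as a covariate (limma adjusted p = 0.652). Without moderation the adjusted p was 0.108. The other 2 probe sets of LEF1, both dimmer, differed by 0.046 each, and the mean of all 3 by 0.17. SP5, a repressor and direct target, stood at 8.64, 8.83 and 8.51 on the DLD-1Δα-Cat arrays and at 8.24, 8.53 and 8.32 on the DLD-1α-Cat arrays, with a slight overlap and a difference of 0.30 (limma adjusted p = 0.238). PROX1, a homeobox factor induced in colorectal tumours, differed by 0.00366 (95% interval -0.41 to 0.41).

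MYC, the growth-promoting transcription factor, stood at 8.39, 8.49 and 8.45 on the DLD-1Δα-Cat arrays, against 8.39, 9.24 and 9.11 on the DLD-1α-Cat arrays. Replicate 1 of DLD-1α-Cat lay with the DLD-1Δα-Cat arrays and the other 2 lay clearly above them. The difference of -0.47 had a limma adjusted p of 0.263 over all 6 arrays. With that array left out it was -0.74 (limma adjusted p = 0.0144), so 1 array decided the call, and MYC had 1 probe set and no second reading.

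The promoters of 20 of the 32 members were matched by symbol to RefSeq sequences of 300 bases (250 before to 50 after the annotated start, build GRCh38.p14), 30 promoters in all. Both strands were searched for the TCF/LEF consensus as CTTTGNN, where the last letters are AA, AT, TA or TT, and no other motif was searched. The promoters of 3 member genes held a match, those of SP5, DKK1 and 1 of 3 starts of TCF7L2, or 10% of the promoters, against 13.8% of all 35116 promoters in the table. SP5 and DKK1 are shown because their promoters held more than 1 match, and LEF1 because it was the target nearest to the threshold. Capitals mark the matches, which read TTCAAAG where the consensus lies on the other strand. SP5 is at chr2:170715087-170715386 on the plus strand, DKK1 at chr10:52314031-52314330 on the plus strand and LEF1 at chr4:108166252-108166551 on the minus strand, each printed 5′ to 3′ along the gene.
SP5: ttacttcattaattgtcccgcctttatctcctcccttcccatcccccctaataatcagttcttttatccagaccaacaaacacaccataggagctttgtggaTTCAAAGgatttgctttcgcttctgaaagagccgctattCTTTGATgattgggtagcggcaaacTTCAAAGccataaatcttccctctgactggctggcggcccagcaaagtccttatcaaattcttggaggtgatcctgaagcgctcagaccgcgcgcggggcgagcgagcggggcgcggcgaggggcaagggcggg
DKK1: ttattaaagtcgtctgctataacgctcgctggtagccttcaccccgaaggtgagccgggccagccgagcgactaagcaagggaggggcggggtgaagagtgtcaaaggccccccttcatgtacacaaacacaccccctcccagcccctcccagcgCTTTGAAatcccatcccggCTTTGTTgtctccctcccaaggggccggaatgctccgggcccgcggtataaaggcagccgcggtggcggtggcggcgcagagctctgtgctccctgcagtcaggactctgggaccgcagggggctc
LEF1: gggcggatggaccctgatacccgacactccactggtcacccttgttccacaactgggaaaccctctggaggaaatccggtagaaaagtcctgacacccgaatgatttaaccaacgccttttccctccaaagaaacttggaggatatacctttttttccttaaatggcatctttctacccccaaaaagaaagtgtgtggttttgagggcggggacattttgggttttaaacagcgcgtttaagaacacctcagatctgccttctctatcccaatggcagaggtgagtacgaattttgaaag
The 3 matches of SP5 begin at positions -148, -109 and -84 from the start site, and the 2 of DKK1 at -95 and -76. The window of LEF1 held 0 matches, which says only that these letters are not in it.

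The remaining targets have various roles. TNFRSF19 (TROY), a TNF receptor family member of intestinal stem cells, stood at 9.22, 9.13 and 9.09 on the DLD-1Δα-Cat arrays, against 9.38, 9.62 and 9.63 on the DLD-1α-Cat arrays. The groups did not overlap and were apart by 0.16. The difference of -0.39 (SE 0.108) did not pass (limma adjusted p = 0.0861), and all 3 probe sets lay below 0, from -0.39 to -0.24. It passed in 4 of 16 other fits, with quantile normalization, centring, array weights and without dim genes (adjusted p from 0.0313 to 0.0415). TNFRSF19 passed in 0 of the 6 fits without 1 array (adjusted p from 0.0531 to 0.257). Its adjusted p was 0.162 without moderation and 0.713 with the β-actin ratio as a covariate. BMP4, a BMP ligand, stood at 12.53, 12.65 and 12.55 on the DLD-1Δα-Cat arrays and at 12.66, 12.75 and 12.77 on the DLD-1α-Cat arrays. Its groups were apart by 0.010, and the 95% interval of its difference ran from -0.37 to 0.067.

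CCND1, the G1 cyclin D1, stood at 12.70, 12.97 and 13.05 on the DLD-1Δα-Cat arrays, against 13.02, 12.98 and 13.02 on the DLD-1α-Cat arrays. The groups overlapped, and the difference of -0.10 had a 95% interval from -0.37 to 0.17. The second probe set of CCND1, dimmer at a mean of 8.31, had groups that did not overlap. It differed by -0.33 (95% interval -0.62 to -0.052) and did not pass in the fit of every probe set (limma adjusted p = 0.210). L1CAM, an adhesion molecule of invasive colon cancer cells, differed by -0.044 (95% interval -0.35 to 0.26), with all values between 5.03 and 5.39.

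**Figure D4:**
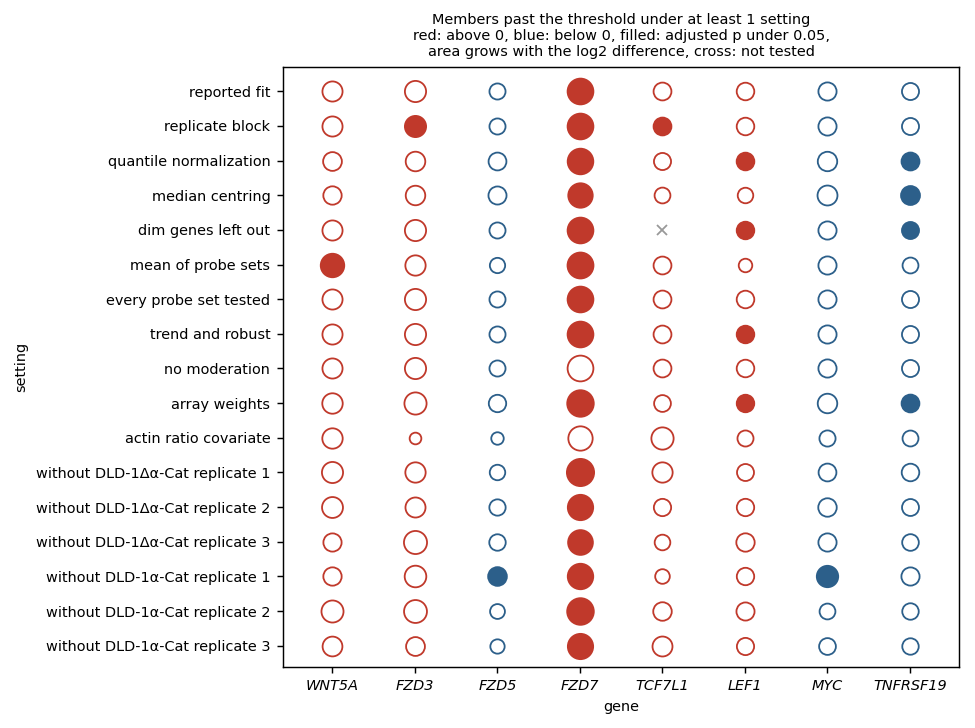
Each member that passed under at least 1 setting, by setting; filled circles have an adjusted p under 0.05, red lies above 0, blue below 0, and the area grows with the size of the log2 difference. FZD7 is filled in 15 of 17 rows and LEF1 and TNFRSF19 in 4 each, while the other 5 genes are filled in 1 each.

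Further genes of the pathway were read from lists of its other parts. Of 69 other components 2 rose and 0 fell, or 2.9%, below the 5.52% of all genes called. TLE2, a Groucho-type corepressor of TCF factors, stood at 7.25, 7.52 and 7.71 on the DLD-1Δα-Cat arrays, against 6.07, 6.51 and 5.67 on the DLD-1α-Cat arrays, a difference of 1.41 (limma adjusted p = 0.0139). DKK3, a divergent Dickkopf family member, stood at 8.62, 8.35 and 8.47 on the DLD-1Δα-Cat arrays, against 7.37, 7.46 and 7.39 on the DLD-1α-Cat arrays. Its difference was 1.07 (limma adjusted p = 0.00202), and 2 of its 6 probe sets passed, both upward. The groups of both genes were well apart. The second probe set of TLE2 differed by 0.60 and did not pass, and without replicate 2 or 3 of DLD-1Δα-Cat TLE2 missed the threshold (limma adjusted p = 0.0549 and 0.0534). The mean of the DKK3 probe sets differed by 0.44 and did not pass either (limma adjusted p = 0.0660). With the block 4 of the list were higher and 0 lower, in a fit that called 7.39% of all genes. The added genes were VANGL2 (limma adjusted p = 0.0276) and WNT7B (0.0428). The list's median difference was -0.0096.

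Of 24 other target genes 3 rose and 1 fell, 16.7%, where 5.52% of all genes were called. The list was partly known from earlier results of these data, so this share is no independent evidence. FGF9, a fibroblast growth factor, stood at 6.95, 6.42 and 6.74 on the DLD-1Δα-Cat arrays, against 4.36, 5.69 and 5.14 on the DLD-1α-Cat arrays, a difference of 1.64 (limma adjusted p = 0.0292). Its groups did not overlap, but it missed the threshold with the block (limma adjusted p = 0.0669) or without replicate 1, 2 or 3 of DLD-1Δα-Cat or replicate 3 of DLD-1α-Cat (limma adjusted p from 0.0656 to 0.109). FGF18, of the same family, stood at 8.43, 8.14 and 8.39 on the DLD-1Δα-Cat arrays, against 7.04, 7.19 and 7.58 on the DLD-1α-Cat arrays. It differed by 1.05 (limma adjusted p = 0.0131), with 2 of 6 probe sets past the threshold, and missed it without replicate 3 of DLD-1Δα-Cat (limma adjusted p = 0.0543). The crypt stem cell genes went in opposite directions, LGR5 at -2.83 (limma adjusted p = 0.000888) and ASCL2 at 0.46 (limma adjusted p = 0.0463). ASCL2 passed in 0 of the 6 fits without 1 array, at adjusted p from 0.0599 to 0.181. With the block, where 7.39% of all genes were called, 3 of these 24 genes were higher and 3 lower. FGF9 was no longer among them, and TIAM1, an activator of the GTPase Rac (0.56, limma adjusted p = 0.0350), was higher. FOSL1, an AP-1 transcription factor (-1.13, limma adjusted p = 0.00774), and RNF43, a ubiquitin ligase that removes Frizzled receptors (-0.42, limma adjusted p = 0.0466), were lower in that fit. The genes added by the block are named to complete these counts and were chosen after their values were seen. Of the 6 genes called in the unblocked fit, 5 lost the call without moderation (adjusted p from 0.0594 to 0.185) and DKK3 did not (0.0420). With the β-actin ratio as a covariate 5 lost it (adjusted p from 0.0780 to 0.622) and FGF18 did not (0.0458), and the difference of TLE2 was 0.92 there (limma adjusted p = 0.474).

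**Figure D5:**
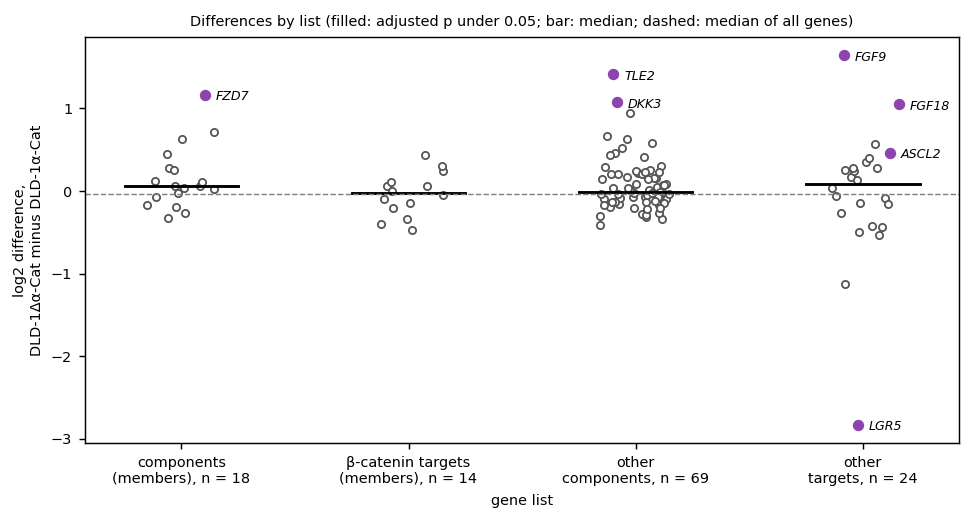
Log2 differences, DLD-1Δα-Cat minus DLD-1α-Cat, of the components and targets among the members and of the other component and target genes; filled points have an adjusted p under 0.05, bars are list medians and the dashed line is the median of all genes. All 4 medians lie near 0, and LGR5, at -2.83, lies far below the other genes.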

How the data were processed

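RNA of 6 samples of DLD-1 subclones was hybridised to arrays with 54675 probe sets. The authors deposited log2 intensities. Per the submitters' processing notes they came from RMA in Affymetrix Expression Console, whose version is not given here. Array medians lay between 6.12 and 6.15. Precision is limited by 3 arrays per group. Groups and replicate numbers come from the titles.

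A platform annotation of GEO gave 1 symbol for 41091 probe sets, several for 1801 and none for 11721, with 62 control probe sets left out. By gene ID 41037 matched RefSeq, used for names. The brightest probe set stood for each of 19775 genes, with no filter on dim ones. Of the 32 measured members 19 had several probe sets, 85 in all.

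Differences were tested in R 4.3.3 by lmFit and eBayes of limma 3.58.1 (both groups in 1 model, two-sided, Benjamini-Hochberg over all genes, threshold 0.05), tested on simulated data. Arrays that share a number deviated together from their group means (r = 0.225, 0.376 and 0.122 across genes, all above the limit of 0.1). The labels state no pairing, and the reported fit treated all arrays as unpaired. On this ground a fit with the replicate number as a block was 1 alternative, and the calls that it changed are given. The text names all members, CTNNA1, CTNNB1 and other pathway genes past the threshold; further genes are said to be chosen after their values were seen. Members and lists were chosen with earlier results of these data known. Alternatives were other normalizations, filters, probe set rules, variance models, array weights and leaving out each array, and, added after seeing the data, the β-actin ratio as a covariate.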

Additional observations from a re-analysis of the deposited data

How the results depend on the processing

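The count of members called higher, 1, was 3 with the replicate block, 2 with quantile normalization, without dim genes, with the mean of probe sets, with trend and robust estimation and with array weights, 0 without moderation and 0 with the actin ratio covariate. The count called lower, 0 (with 1 member below 0 at an unadjusted p under 0.05), was 1 with quantile normalization, centring, array weights and without dim genes, and 0 to 2 without 1 array. Under the block FGF9 lost its call, FZD3, TCF7L1, VANGL2, WNT7B, TIAM1, FOSL1 and RNF43 gained one, and no other member or other pathway gene changed its call. Other pathway genes called higher, 5, were 7 with the block, 8 with trend and robust estimation, 1 without moderation, 1 with the actin ratio and 1 to 5 without 1 array. Those called lower, 1, were 3 with the block, centring and array weights, 2 with quantile normalization, the mean of probe sets and trend and robust estimation, 0 without moderation, 0 with the actin ratio and 1 to 2 without 1 array. The components' median of 0.060 was -0.079 after centring and -0.027 to 0.13 without 1 array. The targets' median of -0.020 was -0.16 after centring, -0.11 with the actin ratio and -0.13 to 0.032 without 1 array. CTNNA1 differed by -1.56 with the actin ratio (limma adjusted p = 0.0667) and kept its call in the other 15 alternatives. Among all genes, 69.7% of calls were higher, and this was 51.3% after centring and 59.6% with quantile normalization or without dim genes.

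Of the 32 members 18 kept their sign in every alternative run. Signs turned in genes near 0. With quantile normalization WNT5B was -0.095, AXIN1 -0.014, APC -0.013, CTNNBIP1 -0.0056, NKD1 -0.012, NOTUM -0.064 and PROX1 -0.13. After centring WNT5B was -0.12, WIF1 -0.082, AXIN1 -0.075, APC -0.098, CSNK1A1 -0.034, CTNNBIP1 -0.020, AXIN2 -0.075, NKD1 -0.029, NOTUM -0.083 and PROX1 -0.14. With the mean of probe sets WNT5B was -0.060, APC -0.0095, AXIN2 -0.032 and NKD1 -0.049. With array weights AXIN1 was -4.95e-05, TCF7L2 0.038 and PROX1 -0.059. With the actin ratio WNT5B was -0.27, WIF1 -0.0025, APC -0.22, AXIN2 -0.0081, NKD1 -0.35 and PROX1 -0.14. Without 1 array WNT5B ran from -0.19 to 0.16, FZD2 from -0.18 to 0.033, WIF1 from -0.075 to 0.13, AXIN1 from -0.085 to 0.15, APC from -0.12 to 0.24, TCF7L2 from -0.089 to 0.055, NKD1 from -0.12 to 0.35, PROX1 from -0.15 to 0.14, CCND1 from -0.17 to 0.0010 and L1CAM from -0.13 to 0.061. The cause was not tested. Of the members, 2 (WIF1 and DKK1) lay in the lowest 25% of probe sets by mean signal, where a change of RNA could go unseen.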

Other observations

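Some genes of the pathway outside the members had groups apart without a call in the unblocked fit. Groups did not overlap in 7 of the 69 other components, or 10.1%, against 27.2% of all genes. They did not overlap in 12 of the 24 other targets, or 50%, a list partly known from earlier results of these data. The following genes were picked after their values were seen. VANGL2, a planar cell polarity gene, differed by 0.95 (limma adjusted p = 0.0638, and 0.0276 with the replicate number as a block). WNT7B, a Wnt ligand, differed by 0.59 (limma adjusted p = 0.0943, and 0.0428 with the block), and LGR6, a receptor of R-spondins, by 0.53 (limma adjusted p = 0.0995, and 0.0632 with the block). FOSL1, listed among the other targets, differed by -1.13 (limma adjusted p = 0.0593, and 0.00774 with the block). It was lower on each DLD-1Δα-Cat array than on the DLD-1α-Cat array of the same number, at -1.05, -1.11 and -1.22. Of the 69 other components 8 were higher and 2 lower at an unadjusted p under 0.05, or a share of 14.5%, below the 20.8% of all genes.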
